A study of Homo sapiens with 5 samples.

Results

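The centromere and kinetochore genes are a list of 35 genes whose proteins mark the centromere, load its special histone and build the outer plate that holds spindle microtubules. The members were chosen by symbol from the table of counts, and all 35 were found among the 26485 genes for which counts were deposited. The mRNA of 5 samples was sequenced, all from RPE1, a human cell line from the retinal pigment epithelium whose genotype is given as WT. For 18 h the cells had received DMSO, the solvent of the drug, in 2 libraries, doxorubicin at 0.2 μM in 2 and doxorubicin at 0.34 μM in 1. Doxorubicin intercalates into DNA and poisons topoisomerase II. The concentrations are those of the sample titles and treatment fields, while the free text on the treatment in the labels gives 200 and 340 μM. All groups were the same line under the same growth conditions, and every doxorubicin library was compared with the same 2 DMSO libraries. The study calls the libraries biological replicates and joined both doses after a principal component analysis of these libraries. The labels do not say whether they came from separate cultures, so the p-values measure only the spread between these libraries, which may be technical.

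The centromere is the place on each chromosome where the spindle is attached, and in human cells it is marked by nucleosomes that carry CENP-A in place of the usual histone of that position. A constitutive network of CENP proteins, the CCAN, sits on these nucleosomes through the whole cell cycle, and the MIS12, NDC80 and SKA complexes, the RZZ complex and motor proteins are added to it when cells prepare for mitosis. The mRNAs of many of these genes are known to be made mainly from the late part of interphase to mitosis, so their levels depend on how many cells of a culture are in those stages. From a bulk library alone, fewer cells that express a gene and less mRNA per cell cannot be told apart. By flow cytometry, the paper reports that doxorubicin significantly raised the share of cells in the combined stage of late interphase and mitosis. The paper takes this rise as a cell cycle arrest. From its RNA sequencing and a gene ontology analysis, it also reports that genes of cell cycle progression went down in treated samples. How the levels of the centromere and kinetochore genes relate to the rise by flow cytometry was not tested.

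The promoters of the genes are shown first, because most members moved together. The window was the RefSeq promoter of build GRCh38.p14, 300 bases long, with 250 bases before and 50 after the start site. It was given for 30 of the 35 members in 34 entries, since CENPP, MIS12 and ZWINT have more than 1, and for CENPH, CENPL, CENPM, KNTC1 and MIS18A there was none. The letters searched on both strands were CCAAT, which is the box bound by NF-Y, TTTGAA and TTCGAA, which are forms of the cell cycle homology region (CHR) bound by MuvB complexes, and TTGGCGC and TTCGCGC, which are forms of an E2F site. The reverse complement of CCAAT can share letters with the first E2F form where both overlap. Only the 250 bases before the start site are printed, in the direction of the gene, with every match of these letters on either strand in capitals. CENPA (chr2:26785806-26786055, plus strand) and HJURP (chr2:233854536-233854785, minus strand) are shown as the members with the largest falls. ZWINT (chr10:56361260-56361509, minus strand, its first entry) is shown because its printed stretch holds all 3 kinds of letters, and CENPT (chr16:67847694-67847943, minus strand) as the member with the smallest change. These 4 were picked after the values were seen.
CENPA: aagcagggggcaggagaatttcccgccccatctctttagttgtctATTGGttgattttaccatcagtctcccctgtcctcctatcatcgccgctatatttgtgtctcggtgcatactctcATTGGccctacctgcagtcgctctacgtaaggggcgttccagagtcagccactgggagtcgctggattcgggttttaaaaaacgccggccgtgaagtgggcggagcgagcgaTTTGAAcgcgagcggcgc
HJURP: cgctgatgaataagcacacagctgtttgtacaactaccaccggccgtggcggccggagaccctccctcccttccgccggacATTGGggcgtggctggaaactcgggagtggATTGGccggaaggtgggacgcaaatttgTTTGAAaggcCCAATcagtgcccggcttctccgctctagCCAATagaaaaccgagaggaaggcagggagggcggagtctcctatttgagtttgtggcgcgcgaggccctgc
ZWINT: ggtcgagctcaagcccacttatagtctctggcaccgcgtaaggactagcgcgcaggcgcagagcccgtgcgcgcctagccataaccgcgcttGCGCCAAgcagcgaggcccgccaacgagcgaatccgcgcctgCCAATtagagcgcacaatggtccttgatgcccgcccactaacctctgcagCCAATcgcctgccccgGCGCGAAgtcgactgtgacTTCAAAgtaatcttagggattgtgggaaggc
CENPT: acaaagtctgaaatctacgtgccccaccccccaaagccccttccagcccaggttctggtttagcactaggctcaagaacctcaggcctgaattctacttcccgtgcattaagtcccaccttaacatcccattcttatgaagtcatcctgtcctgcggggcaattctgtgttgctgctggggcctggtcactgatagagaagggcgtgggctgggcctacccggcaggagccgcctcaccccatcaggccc

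The CENPA stretch holds CCAAT letters on the reverse strand from positions -205 and -130, and TTTGAA from position -18, counted from the start site. The HJURP stretch holds 4 CCAAT boxes and a CHR match (TTTGAA) from -111, and the ZWINT stretch holds CCAAT boxes, a CHR and both E2F forms. HJURP also has TTGGCGC from base 9 of the transcribed part, which is not printed. The CENPT stretch held none of the letters. In the full window of 300 bases, CCAAT was present in 21 of the 34 member promoters (61.8%) and in 34.6% of all 35116 promoters. TTTGAA or TTCGAA was present in 16 of the 34 (47.1%), against 16.4% of all promoters, and an E2F form in 8 (23.5%), against 5.06%. All promoters belong to 27305 genes, many of them not among the genes tested below, while all members were tested. The shares were not set against expressed genes only. Among members that passed the threshold below, 12 of 19 promoters (63.2%) held TTTGAA or TTCGAA, and among those that did not pass it 4 of 15 (26.7%) did. For CCAAT these shares were 63.2% and 60.0%, and for the E2F forms 21.1% and 26.7%. The shares count entries and not genes, with 19 entries for 18 genes that passed and 15 for 12 that did not. The repeated entries of ZWINT, which passed, all held TTTGAA. Those of CENPP and of the gene MIS12, which did not pass, held neither TTTGAA nor TTCGAA, which widens the difference between the shares. The matches are descriptions of letters in a fixed window and were not tested. A match is not a bound site, and no match in the window says nothing about the factor.

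After doxorubicin the mRNAs of most centromere and kinetochore genes were lower. The levels are given in CPM, counts scaled to library size after TMM normalization, and log2 changes are log2 fold changes of doxorubicin over DMSO, with their standard errors (SE), from edgeR's quasi-likelihood test of 3 doxorubicin against 2 DMSO libraries. All 35 members passed the filter on low counts, which kept 14187 genes. Of the 35, 20 fell with an adjusted p under 0.01, which is the study's threshold, and 15 did not pass it. Over all genes tested, 2.73% were called lower and 1.29% higher. None of the members was called higher by edgeR, DESeq2 or limma voom, and 0 of 35 had a positive fold change in any of the 3 tools. The median log2 change of the members was -1.97, while that of all genes tested was 0.013. DESeq2, the tool of the study, called 28 members lower, among them all 20 of edgeR, where 7.72% of the genes it tested were called lower and 6.37% higher. In 34 of the 35 members every doxorubicin library lay below both DMSO libraries, and the share of such genes in the whole set tested was 23.4%. CENPT was the exception.

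**Figure D1:**
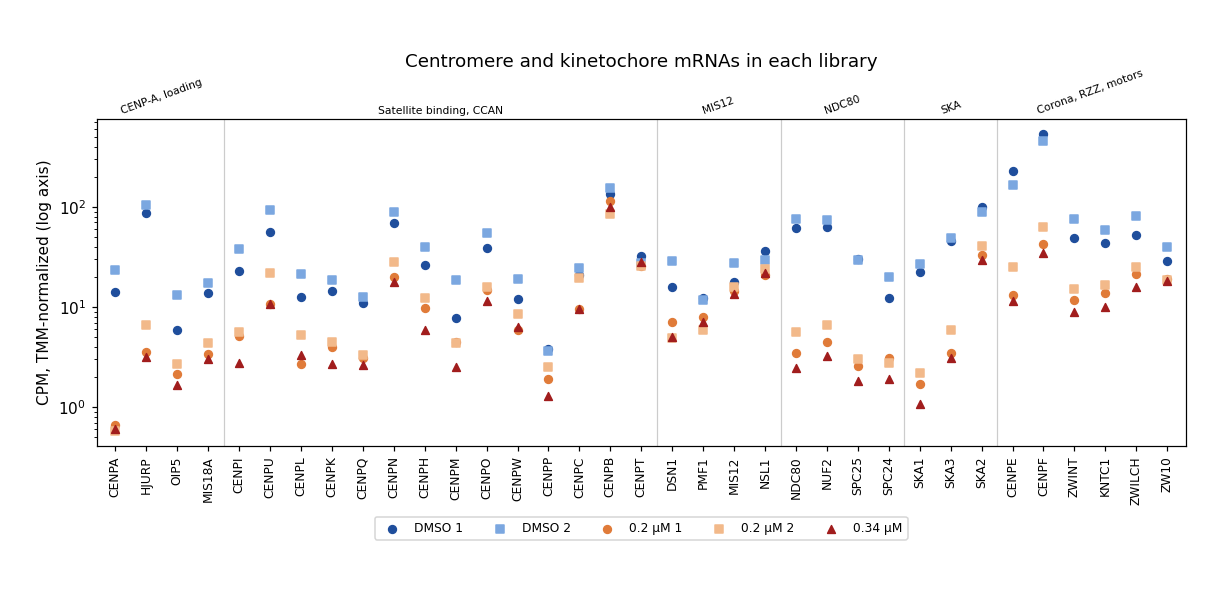
The level of each member in CPM, on a log axis, in each of the 5 libraries, with members grouped by role and ordered by fold change within a role. Blue points are DMSO libraries, orange and red points doxorubicin libraries, and the orange and red points lie below the blue ones for every member except CENPT.

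Fewer members passed whichever library was left out, while the direction stayed the same. With all 5 libraries, 20 members and 388 of 14187 genes were called lower. Without DMSO replicate 2, 1 member passed the threshold, and without DMSO replicate 1, 7 did. Without replicate 1 or 2 of 0.2 μM doxorubicin, 9 and 10 passed, and without the 0.34 μM library 9 did. The smaller number of libraries also lowered the counts over all genes, to between 47 and 183 lower genes. All 35 fold changes stayed negative in each of these fits. CENPA was the only member called in all 5 of them. HJURP, NDC80, NUF2, SPC25, SKA1 and CENPF were called in 4.

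Summed over the members, the DMSO libraries held 1946 and 2119 CPM. The 0.2 μM libraries held 467 and 539 CPM and the 0.34 μM library 405 CPM, so that the mean of DMSO was 4.32 times that of doxorubicin. CENPF, a large protein of the fibrous corona with a long mRNA, made up 24.7% of the members' counts in DMSO and 9.76% in doxorubicin. CENPB, which binds a short box in alpha satellite DNA, made up 7.06% and 21.9%. The size of the change varied between members. In 9 members the DMSO level was more than 8 times that in doxorubicin, and all 9 were called. In 8 members it was 4 to 8 times higher, of which 5 were called, and in 10 it was 2 to 4 times higher, of which 6 were called. In the remaining 8 it was less than 2 times higher and none was called.

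**Figure D2:**
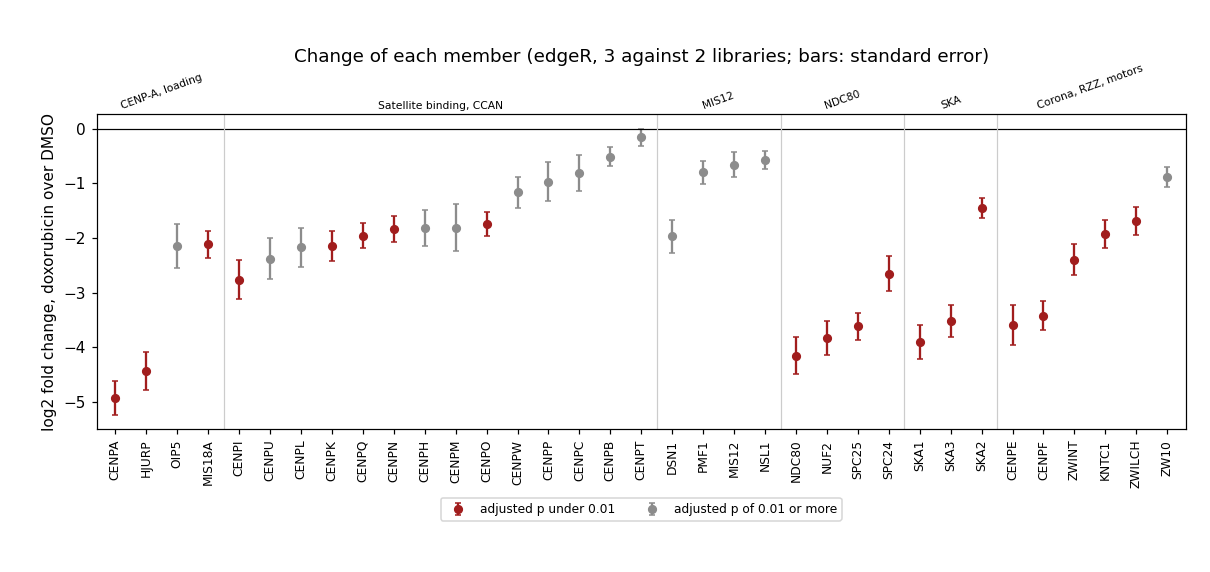
The log2 change of each member, doxorubicin over DMSO, with its standard error, from edgeR on 3 against 2 libraries. Red points passed an adjusted p of 0.01 and grey points did not, and the points range from -4.92 for CENPA to -0.16 for CENPT.

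The largest falls of single members were those of CENPA and HJURP. CENPA encodes the centromeric histone itself. Its level was 14.1 and 23.5 CPM in DMSO, 0.657 and 0.582 CPM at 0.2 μM and 0.606 CPM at 0.34 μM. These are 369 and 600 counts against 17, 14 and 22, and the groups were far apart. The log2 change of CENPA was -4.92 (SE 0.31), with an adjusted p of 0.000694 from edgeR, which is 30.3 times lower. CENPA (chromosome 2 of GRCh38, 26786056 to 26794589) overlaps no other annotated gene. HJURP, the chaperone that delivers CENP-A to the centromere, stood at 87.0 and 105 CPM in DMSO, 3.52 and 6.69 CPM at 0.2 μM and 3.17 CPM at 0.34 μM. Its log2 change was -4.43 (SE 0.34, edgeR adjusted p = 0.00107). The second 0.2 μM library was the highest of the treated ones for HJURP, yet far below DMSO.

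OIP5 and MIS18A encode the subunits of the Mis18 complex, which prepares the centromere for new CENP-A. MIS18A had 13.9 and 17.3 CPM in DMSO, 3.40 and 4.37 CPM at 0.2 μM and 3.06 CPM at 0.34 μM. It fell with a log2 change of -2.12 (SE 0.25, edgeR adjusted p = 0.00368), less than CENPA and HJURP did. OIP5 had 5.87 and 13.1 CPM in DMSO, 2.13 and 2.70 CPM at 0.2 μM and 1.65 CPM at 0.34 μM. The DMSO libraries differed more than 2 times in OIP5, and its log2 change of -2.14 (SE 0.40) did not pass the threshold in edgeR (adjusted p = 0.0186), while it did in DESeq2 (adjusted p = 1.83e-05). OIP5 overlaps the antisense gene OIP5-AS1, and the sources used here do not name the strand setting of the counting, so that reads of both may have been counted together. The count of MIS18A was 0.989 and 0.737 times that of CENPA in DMSO, and 5.18, 7.50 and 5.05 times in the doxorubicin libraries. This pair was picked for its difference, so the ratio is a description.

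All 4 subunits of the NDC80 complex, which binds microtubules directly, fell and passed the threshold. NDC80 had 61.4 and 75.3 CPM in DMSO, 3.48 and 5.65 CPM at 0.2 μM and 2.48 CPM at 0.34 μM, which is a log2 change of -4.15 (SE 0.34, edgeR adjusted p = 0.00133). NUF2, its partner in the coiled-coil arm, had 63.0 and 73.4 CPM in DMSO, 4.52 and 6.69 CPM at 0.2 μM and 3.22 CPM at 0.34 μM. These values ran close to those of NDC80 in every library. SPC25, of the end of the complex that faces the centromere, had 30.4 and 29.4 CPM in DMSO and between 1.82 and 2.99 CPM in doxorubicin, and its DMSO libraries were almost equal. Its partner SPC24 had 12.4 and 20.1 CPM in DMSO, 3.09 and 2.79 CPM at 0.2 μM and 1.90 CPM at 0.34 μM. Its log2 change of -2.65 (SE 0.32, edgeR adjusted p = 0.00422) was the smallest of the 4. The count of SPC24 was 0.202 and 0.267 times that of NDC80 in DMSO and 0.889, 0.493 and 0.767 times in doxorubicin. Per kilobase of transcript, the mean DMSO levels were 34.7 CPM per kb for NUF2, 32.1 for NDC80, 22.3 for SPC25 and 7.10 for SPC24. In doxorubicin these mean levels were 2.45, 1.82, 1.83 and 1.13 CPM per kb in the same order. The lengths are those of the canonical GENCODE transcripts and may differ from those of the annotation used for counting.

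**Figure D3:**
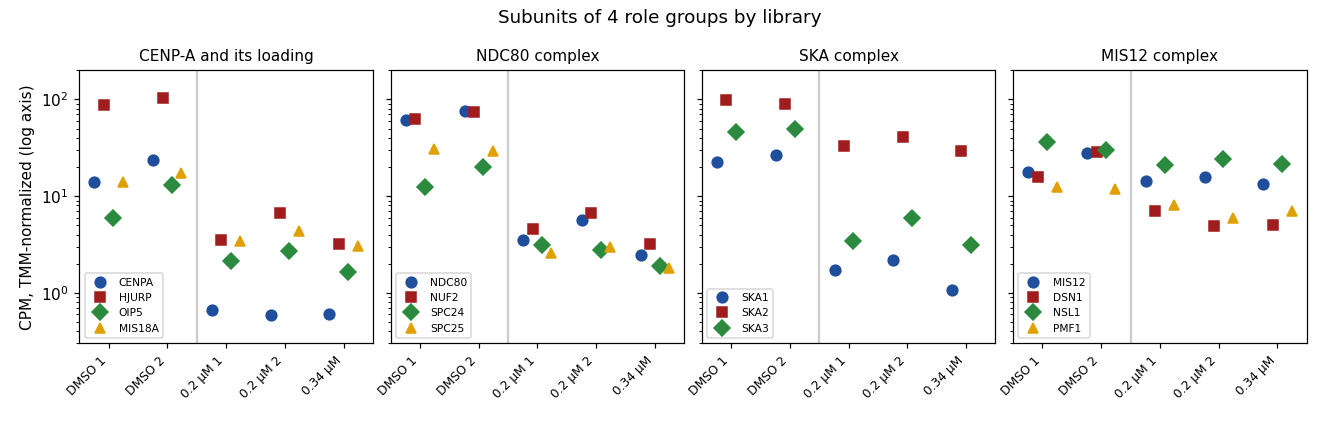
The level in CPM, on a log axis, of the subunits of CENP-A loading, NDC80, SKA and MIS12 in each library, with the DMSO libraries to the left of the grey line. NDC80 subunits lie between 12.4 and 75.3 CPM in DMSO and between 1.82 and 6.69 CPM in doxorubicin, while SKA2 and 3 of the MIS12 subunits stay much closer to their DMSO level than their partners do.

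The SKA complex, which helps NDC80 to follow shortening microtubules, was split. SKA1 had 22.5 and 26.7 CPM in DMSO, 1.70 and 2.20 CPM at 0.2 μM and 1.07 CPM at 0.34 μM, a log2 change of -3.90 (SE 0.32, edgeR adjusted p = 0.00126). SKA3 had 46.1 and 49.0 CPM in DMSO and 3.44, 5.95 and 3.11 CPM in doxorubicin, a log2 change of -3.52. SKA2 had 99.3 and 89.3 CPM in DMSO, 33.2 and 40.6 CPM at 0.2 μM and 29.6 CPM at 0.34 μM. The log2 change of SKA2 was -1.45 (SE 0.18, edgeR adjusted p = 0.00437), so it also passed the threshold, with a smaller change than SKA1 or SKA3. The count of SKA2 was 4.41 and 3.35 times that of SKA1 in DMSO and 19.5, 18.4 and 27.5 times in doxorubicin. The ratio did not overlap between the groups, and the pair was picked for it. SKA2 is the host of MIR454 and MIR301A, and it overlaps 4 annotated genes in all.

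None of the 4 subunits of the MIS12 complex, which joins the inner kinetochore to NDC80, passed the threshold. DSN1 had 15.9 and 28.7 CPM in DMSO, 7.04 and 4.95 CPM at 0.2 μM and 5.07 CPM at 0.34 μM. Its log2 change of -1.97 (SE 0.31) lay just outside, with an adjusted p of 0.0101 from edgeR and 1.98e-07 from DESeq2. The DMSO libraries differed in DSN1 by a log2 of 0.85. NSL1 had 36.3 and 29.8 CPM in DMSO, 20.8 and 24 CPM at 0.2 μM and 21.7 CPM at 0.34 μM, a log2 change of -0.58 (SE 0.17, edgeR adjusted p = 0.0675). The MIS12 gene itself had 18.0 and 27.8 CPM in DMSO against 14.3, 15.8 and 13.5 CPM, and its groups lay close together. PMF1 had 12.4 and 11.9 CPM in DMSO against 8.0, 5.90 and 7.03 CPM. It overlaps the read-through gene PMF1-BGLAP, whose reads may be part of its counts. The log2 changes of MIS12 and PMF1 were -0.66 and -0.80, with adjusted p-values of 0.103 and 0.0557 from edgeR.

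Of the 14 genes of satellite binding and the CCAN, 5 passed the threshold, with a median log2 change of -1.82. CENPI, which works with CENPH and CENPK in one module, fell the most. Its level was 23.0 and 38.1 CPM in DMSO, 5.14 and 5.61 CPM at 0.2 μM and 2.78 CPM at 0.34 μM, a log2 change of -2.76 (SE 0.36, edgeR adjusted p = 0.00552). CENPK had 14.4 and 18.6 CPM in DMSO and 3.98, 4.49 and 2.73 CPM in doxorubicin, and it passed with a log2 change of -2.15 (SE 0.28, edgeR adjusted p = 0.00544). CENPH had 26.2 and 39.4 CPM in DMSO and 9.71, 12.4 and 5.92 CPM in doxorubicin. With a log2 change of -1.82 (SE 0.33, edgeR adjusted p = 0.0170) it did not pass, while it did in DESeq2 (adjusted p = 6.60e-06). CENPM, a further part of this module, had 7.78 and 18.8 CPM in DMSO and 4.49, 4.37 and 2.54 CPM in doxorubicin. Its DMSO libraries were the farthest apart of all members, by a log2 of 1.27. The adjusted p of CENPM was 0.0382 from edgeR and 0.000567 from DESeq2, where it passed.

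CENPN, which reads the CENP-A nucleosome, and CENPL are partners. CENPN had 68.4 and 89.5 CPM in DMSO, 20.1 and 28.4 CPM at 0.2 μM and 17.7 CPM at 0.34 μM and passed with a log2 change of -1.84 (SE 0.24, edgeR adjusted p = 0.0058). CENPL had 12.6 and 21.2 CPM in DMSO, 2.67 and 5.28 CPM at 0.2 μM and 3.33 CPM at 0.34 μM. The log2 change of CENPL was -2.17 with a larger SE of 0.36, and it did not pass (edgeR adjusted p = 0.0126). In DESeq2 CENPL passed (adjusted p = 4.60e-07). CENPN overlaps CENPN-AS1.

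CENPO, CENPP, CENPQ and CENPU belong to another module of the CCAN, and CENPU is known to bind the kinase PLK1. CENPO had 39 and 54.5 CPM in DMSO and 14.7, 15.8 and 11.4 CPM in doxorubicin, and passed with a log2 change of -1.74 (SE 0.22, edgeR adjusted p = 0.00515). CENPQ had 10.9 and 12.5 CPM in DMSO and 3.13, 3.28 and 2.65 CPM in doxorubicin. Its libraries were close together within each treatment, and it passed with a log2 change of -1.96 (SE 0.23, edgeR adjusted p = 0.0037). CENPU had 56.2 and 94.0 CPM in DMSO, 10.7 and 22 CPM at 0.2 μM and 10.8 CPM at 0.34 μM. Its log2 change of -2.38 was larger than that of CENPO or CENPQ, yet its libraries were spread and it just missed the threshold (SE 0.38, edgeR adjusted p = 0.0111). In DESeq2 CENPU passed (adjusted p = 1.94e-08). CENPP had the lowest DMSO level of the members, 3.78 and 3.60 CPM, against 1.89, 2.49 and 1.30 CPM. It spans 8 other annotated genes, OGN, OMD, ASPN and ECM2 among them, so its counts are uncertain, and its log2 change of -0.97 did not pass (edgeR adjusted p = 0.117).

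The smallest changes of the CCAN and satellite binding genes were those of CENPT, CENPB, CENPC and CENPP. CENPT, which recruits NDC80 and binds DNA through a histone fold, had 32.2 and 27.5 CPM in DMSO, 26 and 25.7 CPM at 0.2 μM and 28.3 CPM at 0.34 μM. It was the only member whose groups overlapped, with a log2 change of -0.16 (SE 0.16, edgeR adjusted p = 0.543). CENPT overlaps THAP11 and NUTF2. CENPW, its histone fold partner, had 12.1 and 18.9 CPM in DMSO against 5.84, 8.56 and 6.34 CPM, a log2 change of -1.17 (edgeR adjusted p = 0.0392), which passed in DESeq2 (adjusted p = 0.00204). CENPC, the scaffold that binds both the CENP-A nucleosome and MIS12, had 20.8 and 24.4 CPM in DMSO, 9.63 and 19.4 CPM at 0.2 μM and 9.64 CPM at 0.34 μM. One of the 0.2 μM libraries thus had 2 times the level of the other, and CENPC did not pass (log2 change -0.81, SE 0.34, edgeR adjusted p = 0.160). CENPB had 134 and 153 CPM in DMSO and 116, 85.8 and 101 CPM in doxorubicin, a log2 change of -0.51 (edgeR adjusted p = 0.0960). Neither CENPB nor CENPC passed in DESeq2 either.

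At the outer edge of the kinetochore 5 of 6 genes passed. CENPE, a kinesin that carries chromosomes to the spindle equator, had 231 and 167 CPM in DMSO, 13.1 and 25.3 CPM at 0.2 μM and 11.4 CPM at 0.34 μM. Its log2 change was -3.59 (SE 0.36, edgeR adjusted p = 0.00229). CENPF had 541 and 461 CPM in DMSO and 42.4, 63.1 and 34.9 CPM in doxorubicin, a log2 change of -3.42 (SE 0.27, edgeR adjusted p = 0.00114). ZWINT, which links the scaffold KNL1 to the RZZ complex, had 49.2 and 76.4 CPM in DMSO and 11.7, 15.3 and 8.87 CPM in doxorubicin, a log2 change of -2.39. The RZZ complex itself, which recruits dynein and checkpoint proteins, had smaller changes. KNTC1, its ROD subunit, had 43.3 and 59.5 CPM in DMSO and 13.8, 16.7 and 10.1 CPM in doxorubicin (log2 change -1.93, SE 0.25, edgeR adjusted p = 0.00593). ZWILCH had 52.7 and 81.2 CPM in DMSO and 21.3, 25 and 16 CPM in doxorubicin, and lay just inside the threshold (log2 change -1.69, SE 0.26, edgeR adjusted p = 0.00996). ZW10, which also acts in membrane traffic outside mitosis, had 29.1 and 39.5 CPM in DMSO and 18.9, 18.7 and 18.2 CPM in doxorubicin. The treated libraries were almost equal in ZW10. Its log2 change of -0.88 (SE 0.18, edgeR adjusted p = 0.0246) did not pass, while it did in DESeq2 (adjusted p = 0.000804).

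Scaled per kilobase of transcript, the members stood in a different order in DMSO and in doxorubicin. In DMSO the highest mean levels were those of CENPB, 49.7 CPM per kb, and CENPF, 48.7, and the lowest that of CENPP, 0.445. CENPA was at place 17 of 35 in DMSO and at place 34 in doxorubicin, while CENPT moved from place 19 to place 3. CENPB was first in both groups. After treatment SKA2 and CENPT followed CENPB in the order, while CENPP stayed last.

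The DMSO libraries differed in these genes. The second held more mRNA of 27 of the 35 members, with a median log2 difference of 0.36 against 0.0067 over all genes tested, and the differences ran from -0.47 for CENPE to 1.27 for CENPM. The 8 members with less mRNA in the second library were CENPE, CENPF, CENPP, CENPT, NSL1, PMF1, SKA2 and SPC25, named after their values were seen. Between the 0.2 μM libraries the second was also higher in 27 members, with a median log2 difference of 0.29. The titles number only the second libraries, and the first are called 1 here. Other genes also differed alike between first and second libraries. COL1A1, for example, had 287 CPM in DMSO 1 and 64.5 in DMSO 2, and 189 and 42.7 CPM in the 0.2 μM libraries 1 and 2. The labels do not say whether the number marks a shared day or culture. Values were therefore also compared within it. The 0.2 μM library was lower than the DMSO library of its number in all 35 members, with median log2 differences of -1.76 for number 1 and -1.99 for number 2. The 0.34 μM library was lower than DMSO 1 in all 35, with a median of -2.01. The main test did not use the library number. With it as a block on the DMSO and 0.2 μM libraries, 26 members and 669 of 13891 genes were called lower in edgeR. CENPH, CENPL, CENPU and DSN1 were among these members.

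**Figure D4:**
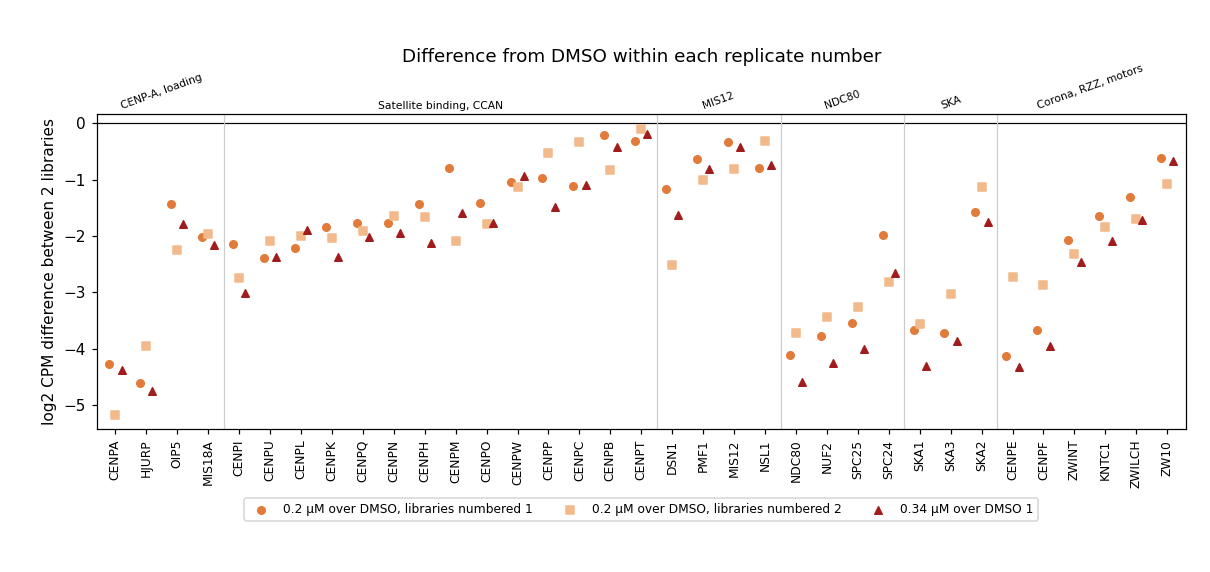
The log2 difference in CPM between a doxorubicin and a DMSO library for each member, taken within libraries numbered 1 (circles), within those numbered 2 (squares), and for the 0.34 μM library over DMSO 1 (triangles). All points lie below 0, with medians of -1.76, -1.99 and -2.01, and the circles and triangles share the same DMSO library.

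The doses were compared to ask whether the higher one lowered these mRNAs further. When all libraries were fitted as 3 conditions, the 0.34 μM library had a lower level than the 0.2 μM libraries in 32 of the 35 members, with a median log2 difference of -0.59, against -0.017 over all genes tested. No member passed the threshold in edgeR, and 0 had an unadjusted p under 0.05, as did 22 of all 14187 genes. The share of all genes called was 0%. DESeq2 also called 0 members, and 3 had an unadjusted p under 0.05, namely CENPH, CENPI and NDC80, as did 33 of all genes. The largest difference was that of CENPI, -0.95 (SE 0.42, unadjusted p = 0.0607 and adjusted p = 1.00 from edgeR), and that of CENPT, 0.13, was at the other end. In 25 members the 0.34 μM library lay below both 0.2 μM libraries, in 9 between them and in 1, CENPT, above both. Of all genes tested 28.9% lay below both. The second 0.2 μM library was higher than the first in 27 members. COL1A1 stood at 151 CPM in the 0.34 μM library, against 189 and 42.7 CPM at 0.2 μM. Over DMSO 1 alone, the members' median log2 difference was -1.76 for the first 0.2 μM library and -2.01 for 0.34 μM. The part of the library number in the difference between doses was not tested. The 0.34 μM condition has 1 library, whose spread was taken from the other conditions, and the fit did not use the library number. In edgeR and DESeq2, genes with an unadjusted p under 0.05 were far fewer than a share of 0.05 of all genes tested. No difference at all would give about that share, so the comparison of doses was conservative. The difference between the doses was thus not detectable with these libraries and is not shown to be absent. Each dose against the shared DMSO libraries gave a median log2 change of -1.89 at 0.2 μM and -2.35 at 0.34 μM, with 9 and 6 members called lower in edgeR, where 0.93% and 0.472% of all genes tested were called lower. All 6 were among the 9.

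Other genes of the same structures, listed by role and not by their change, were counted beside the members. Of 12 further centromere and kinetochore genes, 7 were called lower, 5 were not called and none was higher, with a median log2 change of -1.63. Here KNL1, listed under its older symbol CASC5, is the scaffold between MIS12 and the checkpoint. It fell from 100 and 97.0 CPM in DMSO to 6.23, 10.6 and 4.57 CPM, a log2 change of -3.79 (edgeR adjusted p = 0.00163). CENPS and CENPX, which join CENPT and CENPW and also act in DNA repair, were listed as APITD1 and STRA13. They had log2 changes of -0.60 and -0.58 and did not pass (adjusted p = 0.344 and 0.203 from edgeR). Of 10 genes of the spindle checkpoint and the chromosomal passenger complex, 8 were called lower, with a median of -3.35. BUB3 and MAD1L1 were the members of that list that did not pass, at -0.38 and -0.35.

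In 19 of the 35 members the gene span overlapped no other gene in the RefSeq annotation of GRCh38.p14. Of these, 13 were called lower, and their median log2 change was -2.15. For the other 16, reads of an overlapping gene could be part of the counts. The depth was between 23773061 and 36725345 counts per library. As a check of the treatment, CDKN1A, which encodes the CDK inhibitor p21, stood at 294 and 258 CPM in DMSO and at 2975, 2366 and 3358 CPM in doxorubicin, a log2 change of 3.39 (edgeR adjusted p = 0.000768). The labelled cell type was checked with its markers. Of the pigment epithelium markers, RPE65 had 3 to 8 counts per library, RLBP1 0 to 3 and TYR 0 to 5, so these were at or near 0. BEST1 had 14 to 142 counts, with 0.992 and 0.548 CPM in DMSO and between 1.25 and 3.91 CPM in doxorubicin, while MITF and OTX2 were between 23.5 and 56.7 CPM and the keratin genes KRT8 and KRT18 between 238 and 661 CPM. The mesenchymal genes were expressed as well, with VIM between 4711 and 5805 CPM and COL1A1 between 42.7 and 287 CPM. Markers of blood and endothelial cells were near 0 or low. CD3E and HBB had 0 counts in all libraries, and PTPRC was at 0.191 and 0.274 CPM in DMSO and between 0.967 and 2.20 CPM in doxorubicin (5 and 7 against 25 to 72 counts), a log2 change of 2.86 that did not pass the threshold (edgeR adjusted p = 0.0212). The summed level of PECAM1 and CDH5 was 0.191 and 2.43 CPM in DMSO and between 0.425 and 3.33 CPM in doxorubicin. CDH5 alone had 2 and 56 counts in DMSO, 4 and 69 at 0.2 μM and 5 at 0.34 μM. It was thus higher in the second library of DMSO and of 0.2 μM. The part of these cell types in the results was not tested.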

How the data were processed

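Poly-A RNA libraries of 5 samples were sequenced in paired-end mode. The authors mapped the reads to hg38 with STAR, counted them per gene with featureCounts of Rsubread using iGenomes gene models, and deposited the unnormalized counts. Tool versions, strand setting and treatment of multi-mapped reads: not given in the sources used here. A further deposited table holds the authors' own DESeq2 comparison (fold changes and p-values), which was left out.

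The main test was edgeR 4.0.16 in R 4.3.3 (TMM, minimum count 10, minimum total 15, quasi-likelihood), on 3 doxorubicin against 2 DMSO libraries, as the study grouped them. DESeq2 1.42.0 and limma 3.58.1 (voom) were alternatives, beside other normalizations, no filter, thinned counts, single doses, a replicate block and leaving out each library. P-values were adjusted by Benjamini-Hochberg over all genes tested, with a threshold of 0.01. The SE of a log2 change is its size over the square root of F. Library to library differences used log2 CPM with a prior count of 2. The script was tested on simulated data. Depth was 23773061 to 36725345 counts per library. The DMSO pair and the 0.2 μM pair differed by a chi-square of 117 and 75.3 per degree of freedom, which is above counting error alone, the only error this check covers.

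Members and lists were chosen with earlier results of these data known. Full statistics are given, in each role, for the largest and smallest change, for any positive change, and for adjusted p-values between 0.005 and 0.02. Statistics of other members are added where they were of use, after their values were seen. Positions, overlaps and promoters are from RefSeq (GRCh38.p14), and transcript lengths from GENCODE. The genome supplied was of another build and its coordinates were not used. Some genes of the further lists are not reported here by name.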

Additional observations from a re-analysis of the deposited data

How the results depend on the processing

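All 35 members kept a negative fold change under every alternative tried in edgeR, DESeq2 and limma voom. The count of 20 members called lower stayed between 19 and 28 under DESeq2, limma voom, other normalizations, no filter, thinned counts and a threshold of 0.05. It was 9 with only the 0.2 μM libraries, 9 for 0.2 μM and 6 for 0.34 μM in a fit of 3 conditions, and ranged from 1 to 10 when single libraries were left out, where fewer libraries entered each comparison. The median log2 fold change moved to -2.35 for 0.34 μM alone, to -1.86 with a replicate block on the DMSO and 0.2 μM libraries, and ranged from -2.33 to -1.70 when single libraries were left out. With the replicate number as a block, 26 members and 669 of 13891 genes were called lower, and 26 members and 868 of 14187 genes when the 0.34 μM library was added as number 1, an alternative chosen after seeing the data. The DMSO and 0.2 μM libraries with the same number deviated together (r = 0.53 across all genes tested, which are not independent replicates), but the labels do not say that the number marks a shared day or culture. No alternative tried called a member higher, and DESeq2, RLE normalization and a threshold of 0.05, the alternatives run for the doses, called 0 members different between them. CENPA had 14 to 22 counts after doxorubicin, so its level there carries a wide counting error.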
